A study of Mus musculus with 2 samples.

Results

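The 10 genes described here encode lecticans and other proteins of the perineuronal matrix, the hyaluronan-based mesh around neurons. They are the lecticans versican (*Vcan*), aggrecan (*Acan*), brevican (*Bcan*) and neurocan (*Ncan*), the link proteins *Hapln1*, *Hapln2* and *Hapln4*, tenascin-R (*Tnr*), the receptor phosphatase *Ptprz1* and the transmembrane collagen *Col23a1*. The list was chosen by measured values in part: in an earlier pass over these data, *Vcan* and *Col23a1* were among the genes with the largest ratios towards one of the libraries, and the other 8 joined them by family or function. Every difference in level between the libraries is therefore a description. All 10 symbols were found, each in 1 row of a table of 31053 Ensembl genes and 2 reporters.

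Single nuclei came from the olfactory bulbs of adult wild-type mice (C57Bl/6 in the methods) injected with retroAAV-CAG-H2B-GFP, a retrograde virus that axon endings take up and that puts a green fluorescent protein into the nucleus. Green nuclei were sorted by fluorescence-activated nuclei sorting and counted on the 10x Chromium 3′ platform. In the AON group the virus went into the anterior olfactory nucleus, and in the pPCx group into the posterior piriform cortex; each group is 1 library. Both groups share genotype, virus and sort, and no uninjected group is part of the series. The CAG promoter is active in most cell types, so a green nucleus belongs either to a neuron with an axon at the injected site or to a cell that the virus reached otherwise. The methods give 1 female mouse for the pPCx library and do not describe the animal of the AON library, whose projection neurons held 0 UMIs of *Xist*, the RNA of the inactive X chromosome, against 1744 in the pPCx library. By *Xist* the animals appear to differ in sex. Target, animal, sex and library cannot be told apart, no test between groups was possible, and all intervals below cover counting error only.

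Lecticans are chondroitin sulfate proteoglycans that bind hyaluronan at one end and tenascins at the other. Link proteins lock the lectican to the hyaluronan chain, and tenascin-R crosslinks several lecticans into a net. In the forebrain, dense nets rich in aggrecan surround some neurons, while brevican and neurocan lie in the looser matrix. Brevican, like the proteoglycan made by *Ptprz1*, comes largely from astrocytes. In the bulb, mitral cells (MCs) and tufted cells (TCs) are the projection neurons, and granule and periglomerular cells are the GABAergic interneurons.

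Of 188 AON and 74 pPCx barcodes, 102 and 63 had at least 1000 genes and were used. A nucleus counted as a projection neuron when its UMIs (unique molecular identifiers, one per RNA molecule counted) of *Slc17a7*, *Slc17a6*, *Tbx21* and *Cdhr1* together outnumbered those of *Gad1*, *Gad2* and *Slc32a1*, and as GABAergic in the reverse case with 3 or more of the latter. The AON library gave 25 projection neurons, 47 GABAergic and 30 remaining nuclei; the pPCx library gave 59, 2 and 2. Of the 30 remaining AON nuclei, 18 were led by astrocyte genes, 9 by oligodendrocyte genes and 1 by olfactory ensheathing genes, 2 were undivided, and none was led by oligodendrocyte precursor, microglial or endothelial genes. Summed depth was 1117466 UMIs over the AON projection neurons, 1271188 over the GABAergic and 479744 over the remaining nuclei, and 2328340 over the pPCx projection neurons. Levels are CPM, UMIs of a gene per 1000000 UMIs of the summed nuclei. They compare groups of nuclei for 1 gene and not 1 gene with another. The libraries shared 0 barcodes.

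The levels of the genes that set the classes follow from the rule and do not check the names, and there were exceptions. *Slc17a7*, the vesicular glutamate transporter, stood at 210 CPM in AON and 194 CPM in pPCx projection neurons and at 1.57 CPM in GABAergic nuclei. *Cdhr1*, a cadherin-related protein of MCs and TCs, stood at 192 and 185 CPM in projection neurons. For 8 AON and 1 pPCx projection neurons the margin was 1 or 2 UMIs. The clearest exceptions were 3 AON nuclei that entered the projection neuron class on 1 UMI each and carried 96, 93 and 121 UMIs of the 8 astrocyte genes. Over all 8 genes, those UMIs came to 310 of the 352 in AON projection neurons, and the list stood at 315 CPM there against 18.9 CPM in pPCx projection neurons and 4140 CPM in the remaining nuclei. Ratios of named genes that cross 2-fold when the 3 nuclei are left out are given with and without them. In GABAergic nuclei the same list stood at 716 CPM, and its UMIs were mostly of *Slc4a4* (629 CPM). There *Aqp4* and *Fgfr3* were at 0, and the other genes of the list were detected. Of the 47 GABAergic nuclei, 32 had 10 or more astrocyte-list UMIs, and whether they hold astrocyte RNA was not tested. Of the other lists, oligodendrocyte genes stood at 110 CPM in AON and 60.1 CPM in pPCx projection neurons and ensheathing genes at 95.8 CPM (up to 5720 CPM in 1 nucleus) and 6.01 CPM; their part in the results was not tested. The deepest projection neurons had 274993 UMIs in the AON and 167296 UMIs in the pPCx library, against medians of 38129 and 34306, and whether they are doublets was not tested.

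Projection neurons were divided further by the summed level of 14 genes that the study lists for its mitral cell type M1 (among them *Ebf1*, *Cntn6*, *Kcng1* and *Nrp2*). None of the 10 matrix genes is on that list. At 1000 CPM of the list, 37 pPCx projection neurons were M1-list high and 22 M1-list low; in the AON library 1 was high and 24 low. By classifiers of transcription factor activity, the study assigned most projection neurons of its pPCx library to its type M2 and few to M1. M1-list high therefore names a level of the list and not the type that the study gave these nuclei. The division is a cut on a level and not a cell type: 4 AON nuclei and 1 pPCx nucleus lay between 500 and 2000 CPM. In the pPCx library the cut fell in a gap between nuclei at 971 and 2534 CPM.

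The starts of 3 genes are shown because the results turn on them: *Vcan* and *Col23a1*, which were high in the same nuclei, and *Acan*, which was low there. Each run holds the 250 bases before the RefSeq start and 30 bases after it, 5′ to 3′ on the gene's strand, build GRCm38.p6. RefSeq promoters were found for 9 of the 10 genes, all except *Hapln4*. Capitals mark TCCCNNGGG, the core letters bound by EBF factors, searched on both strands; the longer form with an A at its end overlaps it. They were searched because *Ebf1* was among the genes most like *Vcan*.
Vcan, chr13:89742483-89742762, minus strand: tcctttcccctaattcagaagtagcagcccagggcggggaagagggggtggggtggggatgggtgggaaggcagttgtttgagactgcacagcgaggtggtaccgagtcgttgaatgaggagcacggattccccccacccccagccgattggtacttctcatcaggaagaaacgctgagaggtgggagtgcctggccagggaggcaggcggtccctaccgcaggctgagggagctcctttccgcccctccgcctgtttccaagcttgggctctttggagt
Col23a1, chr11:51289670-51289949, plus strand: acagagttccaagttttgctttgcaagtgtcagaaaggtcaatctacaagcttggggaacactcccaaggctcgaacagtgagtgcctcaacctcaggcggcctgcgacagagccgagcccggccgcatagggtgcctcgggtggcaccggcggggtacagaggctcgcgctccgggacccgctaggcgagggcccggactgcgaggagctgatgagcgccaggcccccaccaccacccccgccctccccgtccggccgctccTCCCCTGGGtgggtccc
Acan, chr7:79052976-79053255, plus strand: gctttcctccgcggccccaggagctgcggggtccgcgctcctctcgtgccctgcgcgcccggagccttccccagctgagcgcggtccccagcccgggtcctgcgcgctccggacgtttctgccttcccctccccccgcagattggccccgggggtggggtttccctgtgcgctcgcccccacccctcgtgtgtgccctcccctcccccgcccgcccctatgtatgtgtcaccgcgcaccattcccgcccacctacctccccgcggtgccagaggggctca
Only the *Col23a1* run holds the 9 letters, starting 14 bases into the transcript, and of the 9 promoters with 50 bases after the start, *Hapln2* holds them as well. Of all 32851 promoters of that length, 6.56% hold TCCCNNGGG and 0.904% hold the longer form, which 0 of the 9 hold. A match is a description of the letters in this window and no more. The *Acan* run is the richest of the 3 in G and C, at 74.3% with 28 CpG pairs, against 61.4% and 11 for *Vcan* and 67.5% and 21 for *Col23a1*.

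In the genome the lecticans and link proteins are neighbours. In GENCODE M21 (GRCm38), *Vcan* (ENSMUSG00000021614, chr13:89655312-89742509, minus strand) lies 43659 bases from *Hapln1* (ENSMUSG00000021613, chr13:89539796-89611652, plus strand). *Bcan* (ENSMUSG00000004892, chr3:87987531-88000230) and *Hapln2* (ENSMUSG00000004894, chr3:88021750-88027583) are 21519 bases apart, both on the minus strand. *Ncan* (ENSMUSG00000002341, chr8:70093085-70120873, minus strand) and *Hapln4* (ENSMUSG00000007594, chr8:70083457-70090862, plus strand) are 2222 bases apart. *Acan* (ENSMUSG00000030607, chr7:79053483-79115099, plus strand) ends 2 bases from the end of *Hapln3* on the other strand, and the genes do not overlap. How reads at that junction were counted was not examined. *Tnr* (ENSMUSG00000015829) spans chr1:159523769-159931729 on the plus strand and overlaps 3 predicted genes, *Ptprz1* (ENSMUSG00000068748) spans chr6:22875502-23052916 and *Col23a1* (ENSMUSG00000063564) spans chr11:51289920-51583918, both on the plus strand. *Vcan* overlaps 2 predicted genes on the other strand.

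Most of the *Vcan* counted came from the pPCx projection neurons. Of 616 *Vcan* UMIs in all filtered nuclei, 596 (96.8%) lay in them, and 539 (87.5%) lay in the 37 M1-list-high nuclei alone. The remaining 20 were spread over the AON library, with 4 in projection neurons, 8 in GABAergic nuclei and 8 in astrocyte-list nuclei. The 9 oligodendrocyte-list nuclei held 0, which allows up to 16.3 CPM. The 2 GABAergic and 2 remaining pPCx nuclei also held 0, which allows up to 50.3 and 224 CPM. The latter bound is close to the 256 CPM of all pPCx projection neurons, so these 2 remaining nuclei cannot show a lack of *Vcan*. Oligodendrocyte precursors, a well-known source of versican in brain, could not be assessed: no nucleus was led by their genes, and *Pdgfra* had 2 UMIs in AON projection neurons and 0 in the other classes named here. Shares of UMIs depend on how many nuclei of each kind were sorted. The level of a pooled class depends on its own mixture, such as M1-list-high and M1-list-low nuclei among pPCx projection neurons.

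As a level, *Vcan* stood at 413 CPM (95% Poisson interval 379 to 450) in M1-list-high pPCx projection neurons and at 55.6 CPM (42.1 to 72.1) in M1-list-low ones. Astrocyte-list nuclei followed at 29.4 CPM (12.7 to 57.9), then GABAergic nuclei at 6.29 CPM (2.72 to 12.4) and AON projection neurons at 3.58 CPM (0.975 to 9.17). The M1-list-high level stood clear of all others. The intervals of M1-list-low and astrocyte-list nuclei overlapped, as did those of GABAergic nuclei and AON projection neurons. Within the AON library the ratio of projection neurons to GABAergic nuclei was 0.569 (0.125 to 2.12), so these counts do not separate the classes, while astrocyte-containing remaining nuclei had 4.66 times (1.25 to 21.1) the level of AON projection neurons. GABAergic nuclei had 0.377 times (0.123 to 1.15) the level of the remaining nuclei.

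**Figure D1:**
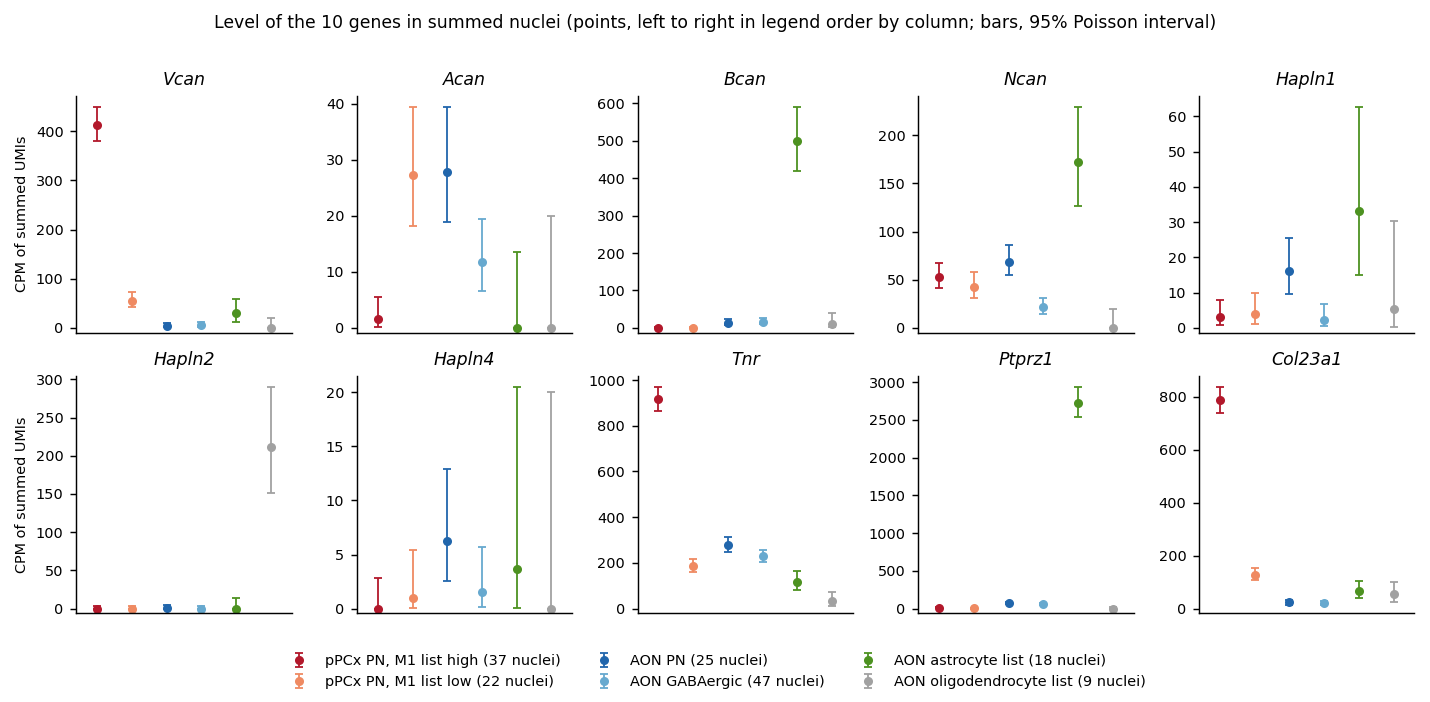
CPM (UMIs per 1000000) of each gene, 1 panel a gene with its own linear axis, over the summed nuclei of 6 groups; points are levels and bars 95% Poisson intervals. *Vcan*, *Tnr* and *Col23a1* peak in M1-list-high pPCx projection neurons (PN; 413, 915 and 786 CPM), *Bcan* and *Ptprz1* in the astrocyte-list nuclei (500 and 2729 CPM), and *Hapln2* in the oligodendrocyte-list nuclei (212 CPM).

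Single nuclei showed the same order. A *Vcan* UMI was found in 48 of 59 pPCx projection neurons (81.4%, Clopper-Pearson 69.1 to 90.3) and in 2 of 25 AON projection neurons (8%, 0.984 to 26). The median depth was 34306 UMIs in the former and 38129 in the latter. Thinned to 5000 UMIs a nucleus, which left out 0 pPCx and 3 AON nuclei, the shares were 55.7% and 1.97%. For comparison, 8.51% of GABAergic nuclei had a *Vcan* UMI at a median of 26129 UMIs, and 2.74% did after thinning, so the AON projection neuron share was not above the GABAergic one. Neither class is known to be free of *Vcan*, empty droplets were not measured, and whether these few UMIs are free RNA was not tested. In the pPCx library 43 projection neurons had 3 or more *Vcan* UMIs and 23 had 10 or more, up to 49; in the AON library the highest were 3 in a projection neuron, 4 in a GABAergic nucleus and 2 in an astrocyte-list nucleus. Among astrocyte-list nuclei 6 of 18 had a *Vcan* UMI, with 1 or 2 each.

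**Figure D2:**
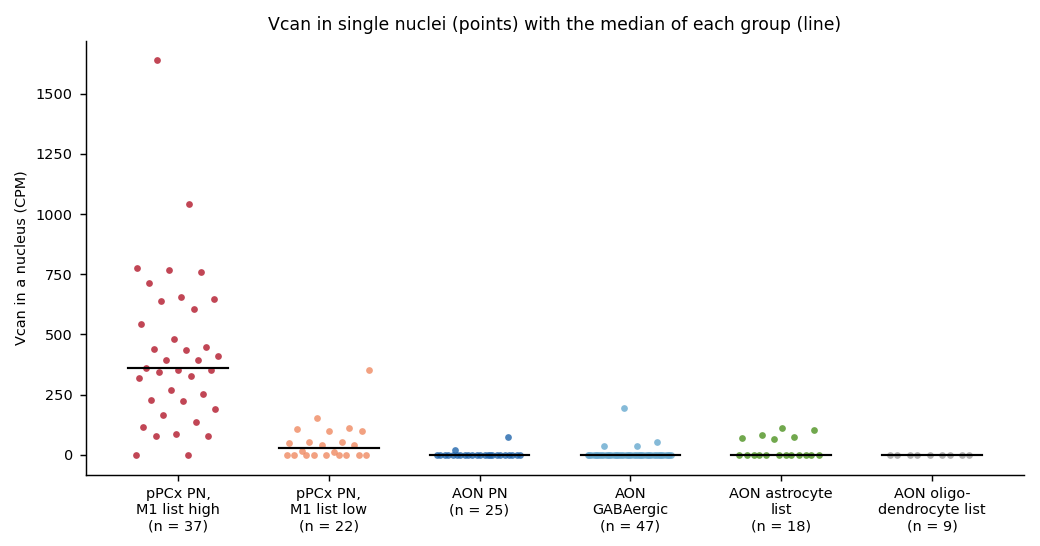
*Vcan* in each nucleus (CPM, linear axis) by group; each point is 1 nucleus and each line the group's median. Medians are 359 CPM in M1-list-high and 28.8 CPM in M1-list-low pPCx projection neurons and 0 in the 4 AON groups, and 1 GABAergic nucleus (194 CPM, 4 UMIs) stands above the other AON nuclei.

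M1-list-high nuclei ranged from 0 to 1638 CPM of *Vcan*, and 35 of 37 had a UMI. M1-list-low nuclei ranged from 0 to 352 CPM, and 13 of 22 had a UMI. The ratio of the summed levels was 7.43 (5.65 to 9.95). A single M1-list-low nucleus with 23 UMIs held 40.4% of that group's *Vcan*; without the nucleus richest in *Vcan* in each group the ratio was 11.2 (7.88 to 16.3). The M1-list-low pPCx nuclei still had 15.5 times (5.75 to 59) the *Vcan* level of AON projection neurons.

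The AON sum of *Vcan* was smaller than the pPCx sum by a factor of 71.5 (27.8 to 263), with a log2 ratio of AON over pPCx of −5.99 after 0.5 UMI was added to each sum. It rests on 4 AON UMIs, of which 3 lay in 1 nucleus, and without the richest nucleus of each library the factor was 260 (46.6 to 10307). Of 11172 genes with 20 or more UMIs over both sums, 6.66% were at least 2-fold higher in AON and 9.82% at least 2-fold higher in pPCx. Of the 10 matrix genes, 7 had 20 UMIs: *Acan*, *Hapln1* and *Ptprz1* were past 2-fold towards AON, *Vcan*, *Tnr* and *Col23a1* towards pPCx, and *Ncan* was within 2-fold. This contrast helped choose the list, so nothing is read from the counts. The median log2 ratio was 0.51 over these 7 and −0.06 over all genes. Without the 3 AON nuclei that carry astrocyte genes, *Ptprz1* came within 2-fold and the others kept their call, so that 2 genes were past 2-fold towards AON and 3 towards pPCx, beside 5.9% and 10.7% of 11069 genes.

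*Acan*, the main lectican of dense perineuronal nets, had the opposite distribution at much smaller counts. AON projection neurons held 31 UMIs (27.7 CPM, 18.8 to 39.4), AON GABAergic nuclei 15 (11.8 CPM, 6.6 to 19.5), M1-list-low pPCx projection neurons 28 (27.3 CPM, 18.2 to 39.5) and M1-list-high ones 2 (1.53 CPM, 0.186 to 5.54). The 30 remaining AON nuclei held 0, which allows up to 6.25 CPM. By the lower end of the ratio's interval, AON projection neurons were at least 3.4-fold higher than those. Within the pPCx library the M1-list-low level was 17.8 times (4.49 to 154) the M1-list-high level, and it matched the AON projection neurons within counting error, at a ratio of AON to M1-list-low of 1.02 (0.589 to 1.76). Counts were concentrated: the deepest AON projection neuron (274993 UMIs) held 17 of 31, and the deepest pPCx nucleus (167296 UMIs) held 12 of 28. Without the richest nucleus of each group the levels were 16.6 CPM in AON and 18.7 CPM in M1-list-low pPCx nuclei, and the low-to-high ratio was 23.5 (3.64 to 984) on 16 and 1 UMIs. An *Acan* UMI was present in 6 of the 25 AON nuclei and in 11 of the 59 pPCx nuclei, 9 of these M1-list low. Over all projection neurons AON was 2.15-fold (1.26 to 3.68) above pPCx; without the richest nucleus of each it was 2-fold (0.918 to 4.25), an interval that includes 1.

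The contrast between *Vcan* and *Acan* was one of level and not of exclusion. Among the 59 pPCx projection neurons, 8 of the 11 with an *Acan* UMI also had *Vcan*, 40 had *Vcan* only and 8 had neither. *Vcan* and *Col23a1* were found in 44 nuclei together, *Vcan* alone in 4, *Col23a1* alone in 8 and neither in 3.

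**Figure D3:**
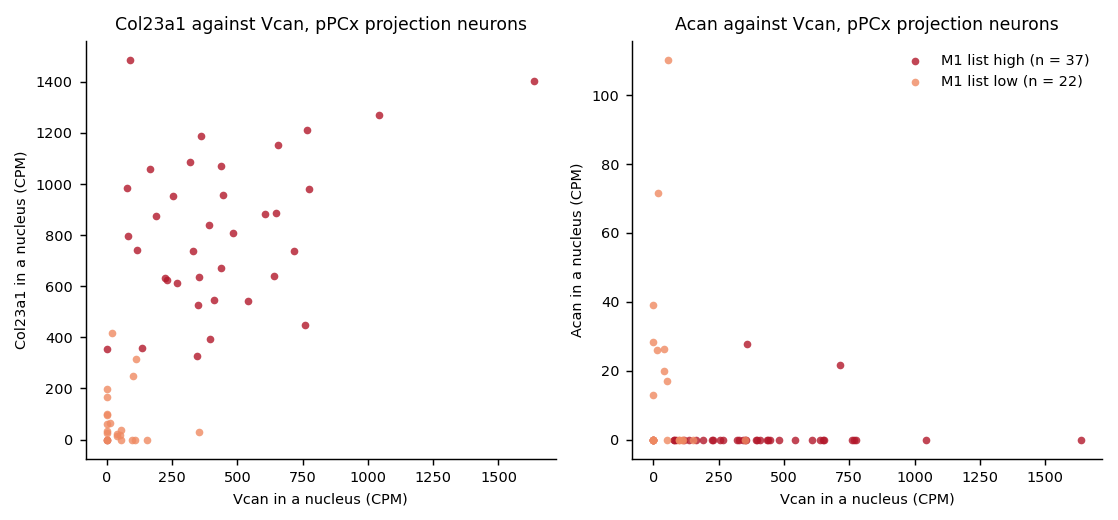
*Col23a1* (left) and *Acan* (right) against *Vcan* in each of the 59 pPCx projection neurons (CPM in a nucleus, linear axes), coloured by the M1 list. *Col23a1* and *Vcan* are both high in M1-list-high nuclei (36 and 35 of 37 with a UMI), whereas the 11 nuclei with an *Acan* UMI are 9 M1-list-low and 2 M1-list-high ones.

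*Bcan*, the smallest lectican, was a gene of the astrocyte-list nuclei. They held 136 of its UMIs at 500 CPM (419 to 591), with a UMI in 17 of 18. The pPCx projection neurons held 0 in 59 nuclei, which allows up to 1.29 CPM. AON GABAergic nuclei stood at 16.5 CPM (10.2 to 25.3) with a UMI in 13 of 47, and oligodendrocyte-list nuclei at 10.9 CPM (1.32 to 39.2) from 1 nucleus. AON projection neurons stood at 14.3 CPM on 16 UMIs, but 14 of those were in the 3 nuclei with astrocyte genes, and without them 2 UMIs were left (1.85 CPM).

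*Ncan* was found both in astrocyte-list nuclei and in projection neurons. Astrocyte-list nuclei stood at 173 CPM (127 to 230) with a UMI in 14 of 18, and oligodendrocyte-list nuclei at 0. AON projection neurons stood at 68.9 CPM (54.4 to 86.1) with a UMI in 16 of 25, and pPCx projection neurons at 48.5 CPM (40 to 58.3) with a UMI in 45 of 59. GABAergic nuclei were lower, at 21.2 CPM (14 to 30.9), a ratio of AON projection neurons to GABAergic nuclei of 3.24 (2.07 to 5.23). Without the 3 nuclei that carry astrocyte genes the AON projection neurons kept 70 of 77 UMIs (64.7 CPM), and the AON-to-pPCx ratio moved from 1.42 (1.05 to 1.91) to 1.33 (0.974 to 1.81). *Ncan* did not follow the M1 list: the M1-list-high level of 52.9 CPM and the M1-list-low level of 42.9 CPM gave a ratio of 1.23 (0.833 to 1.84). It was the only one of the 5 genes with 20 UMIs in that comparison that stayed within 2-fold.

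Each link protein had its own distribution. *Hapln1*, the cartilage link protein that also stabilises neuronal nets, stood at 16.1 CPM (9.55 to 25.5) in AON projection neurons with a UMI in 8 of 25, and at 3.44 CPM (1.48 to 6.77) in pPCx projection neurons with a UMI in 7 of 59. The AON-to-pPCx ratio was 4.69 (1.94 to 12.5). It was 2.36 CPM in GABAergic nuclei, a ratio of AON projection neurons to these of 6.83 (1.99 to 36.2), and 33.1 CPM (15.1 to 62.8) in astrocyte-list nuclei. *Hapln1* and *Vcan* are adjacent, and both were detected in astrocyte-list nuclei, but in projection neurons each was higher in a different library.

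*Hapln2*, the link protein of nodes of Ranvier, was found only in oligodendrocyte-list nuclei apart from 1 UMI in the deepest AON projection neuron. The 9 nuclei held 39 UMIs at 212 CPM (151 to 290), with a UMI in 7. Its neighbour *Bcan* had 2 UMIs in those nuclei, and *Hapln2* had 0 in the astrocyte-list nuclei where *Bcan* was highest. *Hapln4*, a link protein that partners with brevican at synapses of the hindbrain, was close to the limit of detection. It had 7 UMIs in AON projection neurons (4 of them in the deepest nucleus), 2 in GABAergic nuclei, 1 in an astrocyte-list nucleus and 1 in a pPCx projection neuron. *Hapln3*, the neighbour of *Acan*, is no member of the list but completes the family: it had 13 UMIs in AON projection neurons, spread over 8 nuclei, and 0 in GABAergic, remaining and pPCx projection neuron nuclei.

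*Tnr*, the net crosslinker, was found in every neuronal class. M1-list-high pPCx projection neurons stood at 915 CPM (864 to 969), AON projection neurons at 278 CPM (248 to 311), AON GABAergic nuclei at 229 CPM (203 to 257) and M1-list-low pPCx projection neurons at 187 CPM (162 to 216). Astrocyte-list nuclei stood at 118 CPM (80.4 to 166), of which 19 of 32 UMIs lay in 1 nucleus, and oligodendrocyte-list nuclei at 32.6 CPM (12 to 70.9). The M1-list ratio in the pPCx library was 4.88 (4.19 to 5.72). Taken whole, pPCx projection neurons were 2.14-fold (1.89 to 2.42) above AON ones, while AON projection neurons were 1.49-fold (1.24 to 1.79) above the M1-list-low pPCx nuclei. Without the 3 nuclei with astrocyte genes, which held 25 of the 311 AON UMIs, the AON level was 264 CPM (234 to 297) and these ratios were 2.25 (1.98 to 2.57) and 1.41 (1.17 to 1.7). The direction between libraries therefore depended on which pPCx nuclei were compared. Of 25 AON projection neurons 16 had a *Tnr* UMI, against 57 of 59 in the pPCx library. The single AON nucleus that was M1-list high had 2 *Tnr* UMIs of 76634.

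*Ptprz1* encodes a receptor phosphatase, and its secreted form, phosphacan, binds tenascins and contactin-1. Astrocyte-list nuclei stood at 2729 CPM (2537 to 2933), with a UMI in all 18, and oligodendrocyte-list nuclei at 0. By the lower end of the ratio's interval the former were at least 136-fold higher. GABAergic nuclei stood at 56.6 CPM (44.3 to 71.3), with 37 of 72 UMIs in 1 nucleus and 28.1 CPM without it. AON projection neurons stood at 74.3 CPM and pPCx projection neurons at 7.3 CPM (4.25 to 11.7), a ratio of 10.2 (5.99 to 18.3). That ratio rested on the 3 nuclei with astrocyte genes, which held 78 of 83 UMIs. Without them AON projection neurons stood at 4.62 CPM (1.5 to 10.8) and the ratio was 0.632 (0.182 to 1.79).

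*Col23a1*, a transmembrane collagen whose ectodomain can be shed, followed *Vcan*. M1-list-high pPCx projection neurons stood at 786 CPM (739 to 836), with a UMI in 36 of 37, and M1-list-low ones at 128 CPM (107 to 152), with a UMI in 16 of 22. One M1-list-low nucleus, the deepest, held 70 of that group's 131 UMIs, and the ratio of 6.15 (5.12 to 7.44) became 10.8 (8.37 to 14.3) without the richest nucleus of each group. Astrocyte-list nuclei stood at 66.1 CPM (39.2 to 105), oligodendrocyte-list nuclei at 54.3 CPM (26 to 99.9), AON projection neurons at 23.3 CPM (15.2 to 34.1) and GABAergic nuclei at 19.7 CPM (12.7 to 29). In AON projection neurons 18 of the 26 UMIs lay in 1 of the 3 nuclei with astrocyte genes. The pPCx level was 21.3-fold (14.5 to 32.8) above AON with them, and AON projection neurons stood at 7.39 CPM (3.19 to 14.6) without them.

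**Figure D4:**
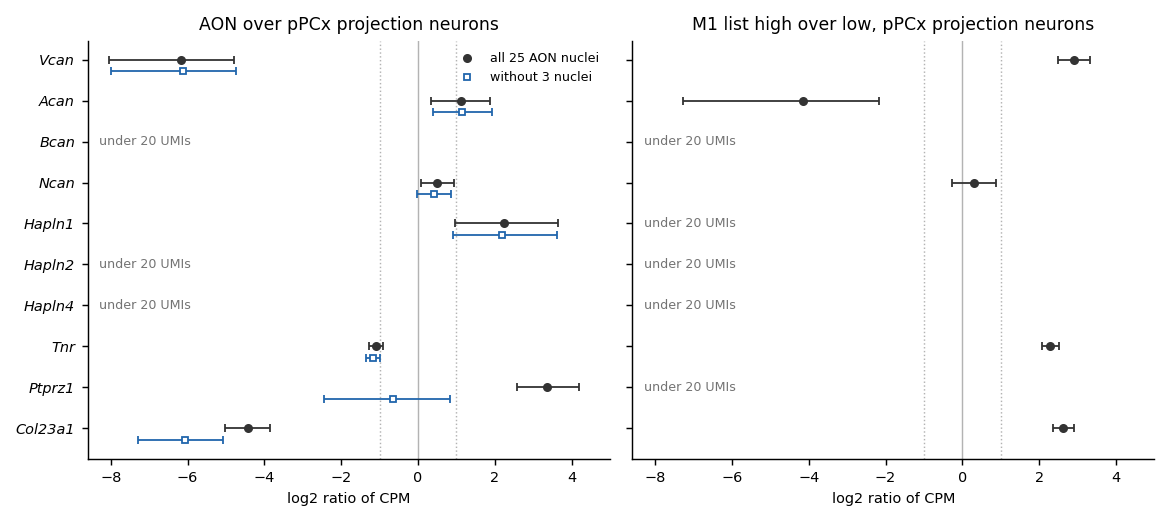
Log2 ratio of CPM (no UMI added) for AON over pPCx projection neurons (left) and M1-list-high over M1-list-low pPCx projection neurons (right); points are ratios, bars exact 95% counting intervals and dotted lines mark 2-fold. Open squares leave out the 3 AON nuclei with astrocyte genes: *Ptprz1* moves from 10.2-fold to 0.632-fold and the other 6 keep their side of 0. Genes with under 20 UMIs over both sums have no point.

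The other comparisons place the 10 genes against the background of all genes. Between M1-list-high and M1-list-low pPCx projection neurons, 10.2% of 9686 genes were at least 2-fold higher in the former and 5.58% in the latter. Of the 5 matrix genes with 20 UMIs, *Vcan*, *Tnr* and *Col23a1* were past 2-fold towards M1-list high and *Acan* towards M1-list low. *Vcan* and *Col23a1* helped choose the list by their ratio between the libraries. Most of their UMIs in pPCx projection neurons lay in M1-list-high nuclei (539 of 596 and 1025 of 1156). This contrast is therefore tied to the choice, and nothing is read from its counts. Between AON projection neurons and GABAergic nuclei, 15.2% of 9808 genes were at least 2-fold higher in projection neurons and 16.1% in GABAergic nuclei. Of 7 matrix genes, *Acan*, *Ncan* and *Hapln1* were past 2-fold towards projection neurons and 0 towards GABAergic nuclei. *Tnr*, at a ratio of 1.22 (1.03 to 1.43), *Bcan*, *Ptprz1* and *Col23a1* were within 2-fold. These last 3 calls rested on the 3 nuclei with astrocyte genes. Without them *Bcan* (2 against 21 UMIs) was 8.94-fold (2.19 to 78.7), *Ptprz1* (5 against 72) 12.3-fold (5.02 to 38.9) and *Col23a1* (8 against 25) 2.66-fold (1.16 to 6.83) higher in GABAergic nuclei. The count was then 3 towards each class, with *Tnr* within 2-fold at 1.15 (0.977 to 1.36), beside 14.7% and 17.2% of 9693 genes. Only projection neurons were left out. All 47 GABAergic nuclei were kept, though 32 of them also had 10 or more astrocyte-list UMIs. A single GABAergic nucleus held 37 of the 72 *Ptprz1* UMIs, and another held 10 of the 25 *Col23a1* UMIs. Without these nuclei *Ptprz1* stayed past 2-fold, at 28.1 CPM in GABAergic nuclei, but *Col23a1* came within it, on 15 UMIs.

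Against the remaining AON nuclei, 18.2% of 8579 genes were at least 2-fold higher in AON projection neurons and 23.4% in the remaining nuclei. Of 8 matrix genes, *Acan* and *Tnr* were past 2-fold towards projection neurons, and *Bcan*, *Hapln2*, *Ptprz1* and *Col23a1* towards the remaining nuclei. Without the 3 nuclei the same 2 and 4 genes were past 2-fold, beside 18.6% and 24% of 8445 genes. The distance grew for *Bcan* (log2 ratio −4.29 with and −6.97 without them), *Ptprz1* (−4.37 and −8.25) and *Col23a1* (−1.32 and −2.92). Between GABAergic and remaining nuclei, 18.1% of 8926 genes were at least 2-fold higher in GABAergic nuclei and 21.1% in the remaining ones. There *Tnr* was the 1 of 6 matrix genes past 2-fold towards GABAergic nuclei, by 2.89-fold (2.06 to 4.17), and the other 5 were past 2-fold towards the remaining nuclei.

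The genes most like *Vcan* were sought over the 59 pPCx projection neurons, as Pearson r of log2(UMIs per 10000 + 1) among 6052 genes with 50 or more UMIs. All points come from 1 library and the mixture of M1-list-high and M1-list-low nuclei, so r is a description. The 8 closest were *Cntn6* (0.75), *Lrrtm4* (0.73), *Col23a1* (0.71), *Ebf1* (0.70), *Nrp2* (0.70), *Dpyd* (0.69), *Tshz3* (0.68) and *Gabra2* (0.67). Of these, *Cntn6*, *Ebf1*, *Nrp2* and *Gabra2* are on the M1 list that divided the nuclei. *Cntn6* encodes a contactin, *Lrrtm4* a postsynaptic adhesion protein, *Nrp2* a semaphorin receptor and *Ebf1* and *Tshz3* transcription factors. The 5 genes closest to *Col23a1* were *Cntn6* (0.86), *Zmat4* (0.81), *Ebf1* (0.81), *Dpyd* (0.81) and *Cpa6* (0.79).

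Much of that likeness lay between the groups and not within them. *Vcan* and *Col23a1* had r of 0.71 over all 59 nuclei, 0.46 within the 37 M1-list-high nuclei and −0.12 within the 22 M1-list-low ones. *Tnr* and *Col23a1* had 0.72, 0.58 and −0.20, and *Vcan* and *Tnr* had 0.64, 0.31 and 0.20. *Ncan* was between −0.20 and 0.18 with each of the 3 in every group.

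The M1 list and *Vcan* parted in some of the nuclei at intermediate levels of the list. One pPCx nucleus at 2534 CPM of the M1 list, counted as M1-list high, had 102 of its 108 list UMIs in *Ebf1*, 2 in *Cntn6*, and 0 UMIs of *Vcan*, *Col23a1* and *Tnr* among 42618. The AON nucleus at 1148 CPM of the list had 83 of 88 list UMIs in *Ebf1* and 1 in *Cntn6*, with 0 of *Vcan*. Another 2 AON projection neurons at 728 and 735 CPM owed 26 of 40 and 24 of 29 list UMIs to *Ebf1*; the latter held 3 of the 4 *Vcan* UMIs of the AON projection neurons and 0 of *Tnr*. The pPCx nucleus at 971 CPM, counted as M1-list low, had 35 of 39 list UMIs in *Nrp2*. It held 4 UMIs of *Vcan*, 10 of *Col23a1* and 16 of *Tnr*. These nuclei were picked out after their values were seen.

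The wider matrix machinery was examined in 6 lists of 60 genes, each found in the tables. Between AON and pPCx projection neurons, 35 of them had 20 UMIs, of which 4 were past 2-fold towards AON and 6 towards pPCx, beside the 6.66% and 9.82% of all genes. Without the 3 nuclei with astrocyte genes the numbers were 3 and 7. Of the 10 hyaluronan genes 3 were counted, with 1 past 2-fold towards pPCx: *Tmem2*, a hyaluronidase of the cell surface, had 1 UMI in AON and 42 in pPCx projection neurons, a log2 ratio of −3.77 (−9.67 to −1.78). *Has1*, a hyaluronan synthase, had 11 and 34 UMIs, a log2 ratio of −0.53 (−1.70 to 0.45). Of the 21 genes of chondroitin sulfate synthesis 13 were counted, with *Chst11* (log2 ratio 1.27) towards AON, *Xylt1* (−1.47, and −1.87 without the 3 nuclei) and *Dsel* (−1.79) towards pPCx and 10 within 2-fold. Among those 10, *Chsy3*, a chondroitin synthase, was at −0.91 and *Csgalnact1*, which starts the chain, at −0.19.

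Of the 7 lectican-cutting proteases 3 were counted. *Adamts20* was past 2-fold towards AON (log2 ratio 1.13), *Adamts5* towards pPCx (−2.85, −8.77 to −0.77, on 1 and 22 UMIs) and *Adamts9* was at 0.10, or at −1.30 on 3 and 18 UMIs (ratio of pPCx to AON 2.79, 0.815 to 14.8) without the 3 nuclei with astrocyte genes. All 8 counted receptors and partners of the matrix lay within 2-fold, among them *Ptprd* at 0.12 and *Sema3a*, a guidance protein held in nets, at 0.25. Within the AON library, by contrast, *Sema3a* stood at 850 CPM in projection neurons, 44.1 CPM in GABAergic and 10.4 CPM in remaining nuclei. Of 10 other proteoglycans 6 were counted, with the glypican *Gpc5* (2.01) and *Cspg5* (1.31) towards AON and the glypican *Gpc6* (−1.97) towards pPCx. Remaining nuclei, which include the astrocyte-list ones, held most *Gpc5*, at 5684 CPM against 287 CPM in AON projection neurons. Without the 3 AON nuclei that carry astrocyte genes *Gpc5* was at 47.1 CPM and its log2 ratio reversed to −0.59, while *Cspg5* stayed at 1.19 and *Gpc6* at −2.01. Of the other 3 transmembrane collagens 2 were counted: *Col17a1* had 2 and 25 UMIs (−2.29, −5.71 to −0.58), 23 of the latter in M1-list-high nuclei, and *Col25a1* was at 0.20.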

How the data were processed

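Deposited UMI counts, not normalized, were produced by the authors with Cell Ranger (version 3.1.0 in the matrix header, another release in the methods), 1 matrix a library. The submitters' processing notes name only human genome builds; the mouse build and whether intronic reads were counted are not given in the sources used here. The tables hold 31053 Ensembl genes and 2 reporters, and 99.6% of the Ensembl identifiers matched GENCODE M21.

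The filter asked for 1000 genes a nucleus and no more than 5% mitochondrial UMIs, of which the latter removed 0 nuclei. Doublets were not called, since these libraries are too small for it. UMIs were summed by library and class with Python 3.11.15, numpy 2.4.6, scipy 1.17.1 and pandas 2.3.3. Intervals at 95% are exact Poisson (levels), Clopper-Pearson (shares) and conditional binomial (ratios), and cover counting error only. Log2 ratios have 0.5 UMI added to each sum, and a ratio was counted past 2-fold only with 20 or more UMIs over both sums. A fold against 0 is the lower end of its interval, and the level that a count of 0 allows is a bound from 3 UMIs. Thinned shares are hypergeometric expectations at 5000 UMIs. The calculations were tested on simulated data.

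The 10 genes, the lists, the classes and the alternatives were chosen with earlier results of these data known. Named genes are the 10, the 2 with most UMIs of each list, and the 8 and 5 most like *Vcan* and *Col23a1*; other genes named were chosen after their values were seen. Alternatives changed the gene filter, class margin, deep nuclei, weighting, scaling, added UMIs, depth and M1-list limit.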

Additional observations from a re-analysis of the deposited data

Results flagged for a closer look

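Barcodes below 1000 genes enter no comparison, and they still held UMIs of these genes above the 3 that a count of 0 allows. The 86 such AON barcodes, with 94666 UMIs, held 34 UMIs of the 10 genes. Among them *Ncan* had 13 (137 CPM, 73.1 to 235, against 52.6 CPM over the AON nuclei that passed), *Acan* had 6 (63.4 CPM, 23.3 to 138, against 16.0 CPM) and *Tnr* had 6 (63.4 CPM, 23.3 to 138, against 223 CPM). *Vcan* had 2, both in 1 barcode. The 11 pPCx barcodes below the limit, with 10682 UMIs, held 24 UMIs of the 10 genes: *Tnr* had 18, of which 13 lay in 1 barcode, and *Ncan* had 4 (374 CPM, 102 to 959, against 47.5 CPM). *Vcan* had 0 there, which allows up to 281 CPM, above the 248 CPM of the pPCx nuclei that passed, so its absence could not be detected at this depth.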

How the results depend on the processing

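The log2 ratio of *Vcan* for AON over pPCx projection neurons stayed between −6.06 and −5.00 under the 8 alternatives, and for M1-list high over low between 2.88 and 2.90 with the M1 list divided at 500 or 2000 CPM. The second range says little, because only 1 pPCx projection neuron lay between 500 and 2000 CPM. Dividing at 2000 CPM left the groups as they were. Of 179 alternative values, 150 stayed within the counting interval of the reported value (for counts, within 1.5 times), 25 moved outside it and 4 reversed. The share of pPCx projection neurons with a *Vcan* UMI moved from 81.4% to 55.7% when thinned to 5000 UMIs, which draws fewer UMIs from each nucleus. *Ptprz1* for AON over pPCx projection neurons (log2 3.31) reversed to −0.57 without the 3 nuclei with 10 or more astrocyte-list UMIs, an alternative added after the data were seen, and to −0.53 under a stricter class margin, which kept 17 of the 25 AON nuclei; with equal weight per nucleus it was 5.08. *Gpc5* for the same groups (2.01) reversed to −0.59 and −0.58 under these alternatives. The number of the 10 genes past 2-fold between AON projection neurons and GABAergic nuclei moved from 3 to 6 without the 3 nuclei and to 5 under the stricter margin. Both alternatives were added after the data were seen, and both kept all 47 GABAergic nuclei. *Col23a1* for AON over pPCx (−4.39) was −5.98 without the 3 nuclei, −5.95 under the stricter margin and −2.85 with equal weight per nucleus. The number of the 10 genes past 2-fold between AON and pPCx projection neurons, 6, ranged from 4 (at 4-fold) to 6. At 4-fold no share of all genes was computed, so nothing is read from this range. No paired analysis was possible because there is 1 library per injection site and no value comes from a test; no library could be left out. Depth limits *Hapln1*, *Hapln4* and *Acan*, whose levels rest on 31 UMIs or fewer in any class.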
